A study of Mus musculus with 28 samples.

Results

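The constitutive proteasome genes were examined in 28 RNA-seq libraries of mouse 3LL lung cancer cells and of the tumors these cells formed. Members were chosen by symbol alone: the rows named Psma, Psmb, Psmc, Psmd or Psme with a number, without Psmb8, Psmb9 and Psmb10, which encode the immunoproteasome. This gave 40 of the 43143 rows of the expression table, of which 18509 carry a gene symbol. They comprised 15 rows of the 20S core, 17 of the 19S cap, 3 of chaperones that assemble the cap and 5 of activators.

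The proteasome degrades proteins marked with ubiquitin. Its barrel, the 20S core, is built of outer alpha rings, which gate entry, and inner beta rings, in which Psmb5, Psmb6 and Psmb7 carry the peptidase sites. The 19S cap sits on the barrel. Its ATPases (Psmc genes) unfold substrates, and its non-ATPases (Psmd genes) hold the cap together, bind ubiquitin or remove it. The genes of core and cap are known to be transcribed together, mainly under NFE2L1, a relative of NRF2. NRF2 itself binds KEAP1, an adaptor that hands it to the proteasome, and several proteasome genes have been described as NRF2 targets in other settings.

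The 7 groups hold 4 libraries each. The cultures were WT 3LL cells, KEAP1-KO cells and KEAP1-NRF2 DKO cells. The KEAP1-KO line carries a homozygous insertion of 1 base in exon 2 of Keap1. The DKO line was made from it by editing exon 5 of Nrf2 (symbol Nfe2l2), so that both groups share the Keap1 edit, and each edited line grew from a single colony, which leaves genotype and clone tied together. Loss of KEAP1 and added loss of NRF2 below stand for KEAP1-KO against WT and for DKO against KEAP1-KO, clone included. The tumors grew under the skin of male albino C57BL/6 mice at 6 weeks of age and were taken after 10 days. In Experiment A each mouse carried a WT tumor on the left flank and a KEAP1-KO tumor on the right, and in Experiment B a KEAP1-KO tumor on the left and a DKO tumor on the right. Genotype and flank therefore cannot be told apart within an experiment. The hosts were WT for both genes, so host cells in a tumor keep KEAP1 and NRF2. No source used here says that the 4 libraries of a culture came from separate cultures, and p-values for the cells may measure technical spread only. The labels' protocol names livers as the RNA source, which goes against the titles and the methods, and the latter were followed.

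All levels below are log2(normalized count + 4), on which a value of 2 means that no read was counted. Each step of 1 is a doubling once counts are well above 4. Differences are given on this scale with the standard error (SE) of the limma fit, and a row was called at an adjusted p under 0.05. The depth recovered from the values was 4222324 to 7524322 reads per library. The edits were checked first. Keap1 read 9.45 ± 0.09 (SD, n = 4) in WT cells, 7.59 ± 0.07 in KEAP1-KO cells and 7.35 ± 0.08 in DKO cells, and 8.88 ± 0.09, 7.45 ± 0.32, 7.46 ± 0.11 and 7.37 ± 0.14 in WT, KEAP1-KO (A), KEAP1-KO (B) and DKO tumors. Its 4 WT libraries lay above all KEAP1-KO and DKO libraries in cells and in tumors. Nqo1, a standard NRF2 target that encodes a quinone reductase, differed by 3.44 ± 0.07 between KEAP1-KO and WT cells and by -5.68 ± 0.07 between DKO and KEAP1-KO cells. In tumors its differences were 5.55 ± 0.18 and -6.30 ± 0.18. The Nfe2l2 row did not pass the test between DKO and KEAP1-KO cells (0.22 ± 0.21, adjusted p = 0.65) or tumors (adjusted p = 1.0), and an RNA level need not register an edit of this kind. Krt8, a keratin of simple epithelium, was high in every library of cells (lowest 11.4), as a carcinoma line would have it, whereas Cdh1 lay near the floor in the cells and no row of the lung markers Nkx2-1, Sftpc and Sftpb was analysed here.

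Of the 40 members, 28 had a mean level of at least 7 over all libraries, between 7.35 and 11.75, and 12 lay lower, between 2.36 and 5.13. The well measured rows covered 13 of the core, 12 of the cap and the 3 assembly chaperones. All 5 activators were among the low rows, with Psma6, Psmb11, Psmc3, Psmc6, Psmd2, Psmd8 and Psmd13. Most rows carry the identifier of a transcript and not of a gene: 21 are listed as retained introns, 7 as processed transcripts, 3 as protein coding, 3 as subject to nonsense-mediated decay, and 6 are gene rows. For 18 well measured transcript rows the table also lists other transcripts of the same gene, and in 18 of 18 the member row was the highest. Of 10 low members with other rows of the gene, the member row was the highest in 1. The identifier may therefore not say which RNA was counted, and levels are compared between libraries and not between genes.

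Part of the proteasome was higher in KEAP1-KO than in WT tumors. Of the 39 members tested in Experiment A, 15 were higher in KEAP1-KO than in WT tumors and 0 were lower, while 5.61% of all 34215 rows tested were higher and 7.49% lower. Strongly expressed rows are called more often, and of rows with a mean of at least 7, 16.2% were higher. All 15 calls fell among the 28 well measured members. Their median difference over these 28 was 0.25, against 0.0024 over all rows at that level. Groups did not overlap for 19 of the 28 members, each higher in KEAP1-KO, a state reached in that direction by 7.24% of all rows tested and by 17.2% of those with a mean of at least 7. In a bulk tumor fewer cells of a type and less RNA per cell cannot be told apart, and leukocyte markers differed between these tumors too, with values given after the tumor results.

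The largest called difference was in the non-ATPases of the cap, where 6 of 11 rows rose. Psmd11, a scaffold of the lid that clamps cap to core, stood at 10.72, 10.84, 10.87 and 10.95 in the WT tumors of replicates 1 to 4. In KEAP1-KO tumors it stood at 11.50, 11.64, 11.62 and 11.59. The difference was 0.74 ± 0.07 (adjusted p = 1.94e-06), and the lowest KEAP1-KO tumor exceeded the highest WT tumor by far more than the spread of either group. Psmd1, the large scaffold of the base, was 10.98, 11.02, 11.05 and 11.01 in WT tumors and 11.61, 11.64, 11.68 and 11.67 in KEAP1-KO tumors, a difference of 0.64 ± 0.06 (adjusted p = 5.45e-06) with narrow groups on both sides. Psmd12, a lid subunit and one of the gene rows, read 9.35, 9.12, 9.46 and 9.11 against 9.71, 9.80, 9.98 and 9.80 (0.56 ± 0.10, adjusted p = 0.000973). Psmd3, also of the lid, read 10.80, 10.88, 10.77 and 10.75 against 11.23, 11.14, 11.49 and 11.21 (0.47 ± 0.08, adjusted p = 0.000723). These 4 were clear of the WT tumors in every library.

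Smaller rises were seen for Psmd4, the ubiquitin receptor of the cap, and for Psmd7, the partner of its deubiquitinase. Psmd4 was 9.96, 9.94, 10.01 and 9.97 in WT tumors and 10.25, 10.20, 10.06 and 10.36 in KEAP1-KO tumors (0.25 ± 0.07, adjusted p = 0.0267). Psmd7 was 9.92, 9.94, 10.06 and 10.004 and 10.27, 10.21, 10.33 and 10.10 (0.24 ± 0.08, adjusted p = 0.0489). Groups barely separated in either case, and the call was lost in 8 of 19 alternative analyses for Psmd4 and in 11 of 19 for Psmd7. For Psmd4 these included leaving out replicate 1 or 2 of the WT tumors or replicate 1, 2 or 4 of the KEAP1-KO tumors (0.20 to 0.25, adjusted p = 0.0519 to 0.0915). For Psmd7 they included leaving out any of the 8 libraries but replicate 4 of the KEAP1-KO tumors (0.21 to 0.27, adjusted p = 0.0571 to 0.122). Psmd14, the deubiquitinase, differed by 0.21 ± 0.07 (adjusted p = 0.0608). Psmd6 went to the other side of 0 (-0.16 ± 0.10, adjusted p = 0.378), with 8.84, 8.79, 8.71 and 8.68 in WT tumors and 8.65, 8.56, 8.72 and 8.46 in KEAP1-KO tumors.

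Among the ATPases 1 of 6 rows rose. That was Psmc5, at 9.11, 8.97, 9.18 and 8.94 in WT tumors and 9.59, 9.55, 9.72 and 9.49 in KEAP1-KO tumors, 0.54 ± 0.08 apart (adjusted p = 0.000128). Psmc1 differed by 0.23 ± 0.08 without passing the test (adjusted p = 0.0746), with 9.41, 9.52, 9.47 and 9.42 against 9.60, 9.65, 9.82 and 9.67. Psmc2 and Psmc4 did not pass it either, at 0.01 ± 0.06 and -0.10 ± 0.08.

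In the core, 4 of 7 alpha rows and 3 of 8 beta rows rose. Psma7 was 10.01, 9.99, 10.13 and 10.11 in WT tumors and 10.52, 10.49, 10.53 and 10.47 in KEAP1-KO tumors (0.44 ± 0.05, adjusted p = 3.1e-05). Psma5, a gene row and a subunit often listed among NRF2 targets, was 9.64, 9.72, 9.81 and 9.76 against 10.12, 10.15, 10.12 and 10.08 (0.39 ± 0.08, adjusted p = 0.00247). Psma1 was 9.17, 9.40, 9.22 and 9.32 against 9.59, 9.69, 9.70 and 9.59 (0.37 ± 0.08, adjusted p = 0.00762). In these alpha subunits every KEAP1-KO tumor lay above every WT tumor, and this held for Psma4 as well, at 9.45, 9.47, 9.61 and 9.36 against 9.83, 9.79, 9.85 and 9.65 (0.31 ± 0.09, adjusted p = 0.0286), although its call was lost in 7 of 19 alternatives. These included leaving out replicate 1, 2 or 4 of the WT tumors or replicate 1, 2 or 3 of the KEAP1-KO tumors (0.27 to 0.31, adjusted p = 0.0628 to 0.0754).

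Of the beta subunits, Psmb3, a structural member of the ring, differed most, with 9.21, 9.33, 9.24 and 9.20 in WT tumors and 9.74, 9.77, 9.81 and 9.72 in KEAP1-KO tumors (0.52 ± 0.06, adjusted p = 3.8e-05). Psmb1, another structural subunit, was 10.53, 10.54, 10.58 and 10.72 against 10.95, 11.06, 10.94 and 10.97 (0.39 ± 0.06, adjusted p = 0.000164). Of the catalytic subunits only Psmb7, with trypsin-like activity, was called (0.33 ± 0.07, adjusted p = 0.00438). Psmb5, which carries the chymotrypsin-like site, was 9.38, 9.41, 9.43 and 9.38 in WT tumors and 9.77, 9.45, 9.82 and 9.58 in KEAP1-KO tumors (0.26 ± 0.09, adjusted p = 0.0932). Psmb6, with the caspase-like site, was 9.17, 9.09, 9.09 and 9.19 against 9.37, 9.36, 9.42 and 9.41 (0.25 ± 0.09, adjusted p = 0.0674). Both had groups that did not overlap and missed the threshold, and Psmb6 was called under 4 of 19 alternatives. Psmb5 was called without replicate 2 of the KEAP1-KO tumors (0.33, adjusted p = 0.0381). Psmb4 did not pass the test (-0.05 ± 0.09, adjusted p = 0.777), at 9.79, 10.02, 9.82 and 9.97 against 9.76, 9.91, 9.99 and 9.73.

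Of the 3 chaperones that assemble the base of the cap, Psmd5 rose. It was 9.16, 9.02, 9.37 and 9.34 in WT tumors and 9.90, 9.76, 10.003 and 9.78 in KEAP1-KO tumors, a difference of 0.64 ± 0.09 (adjusted p = 0.000128) and among the 3 largest of the called members. The other two, Psmd10 (0.20 ± 0.11, adjusted p = 0.282) and Psmd9 (-0.25 ± 0.11, adjusted p = 0.161), had differences of opposite sign and did not pass the test.

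**Figure D1:**
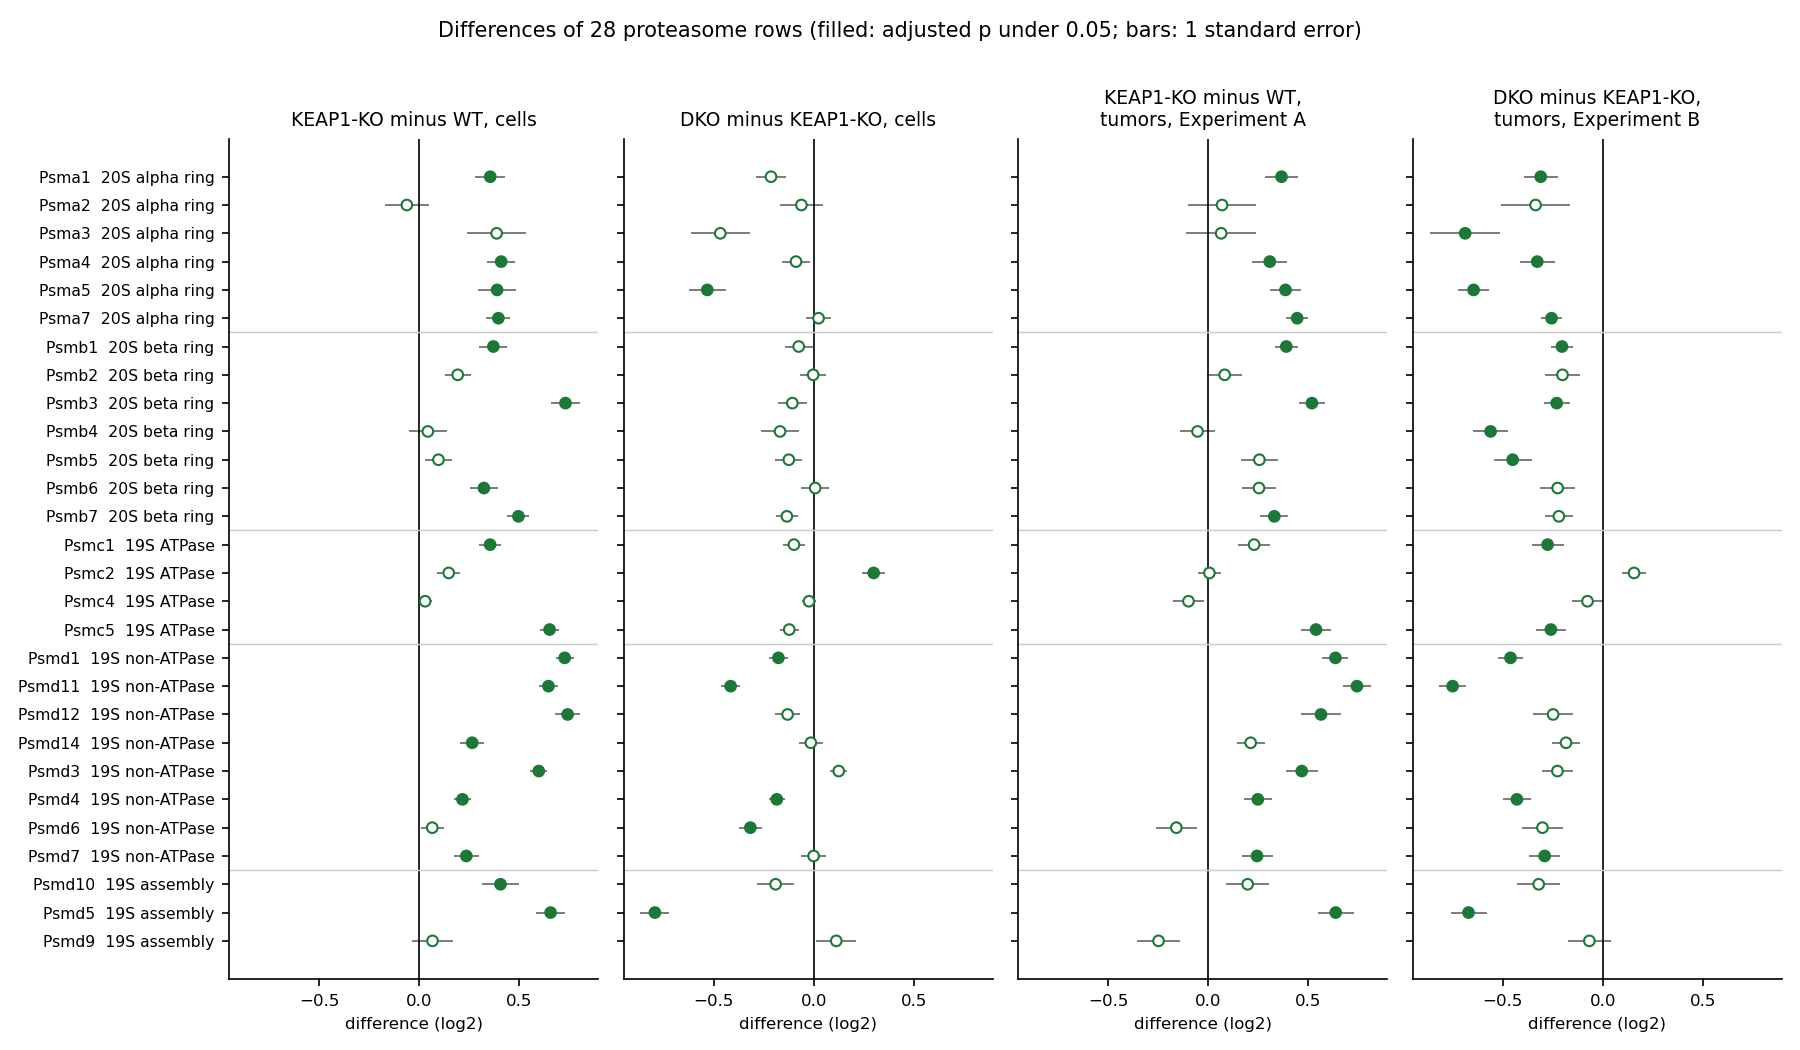
Log2 differences (x axis) of the 28 well measured proteasome rows (y axis, grouped by role) in 4 comparisons. Points are limma estimates, bars 1 SE, and filled points have an adjusted p under 0.05. In tumors 15 rows lie right of 0 and filled for KEAP1-KO minus WT and 16 lie left of 0 and filled for DKO minus KEAP1-KO, whereas in cells the second comparison has 7 filled points.

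Part of the family was lower in tumors after added loss of NRF2. In Experiment B, 16 of 39 members tested were lower in DKO than in KEAP1-KO tumors and 0 were higher. Over all rows tested 4.64% were lower and 4.22% higher, and of rows with a mean of at least 7, 17.8% were lower. The median over the 28 well measured members was -0.28, against -0.087 over all rows at that level, and 27 of the 28 had a negative difference. Groups did not overlap for 17 of the 28, each lower in DKO, against 7.49% of all rows tested and 23.2% of those with a mean of at least 7. The count of 16 fell to 8 without replicate 2 of the KEAP1-KO tumors, to 8 without replicate 4 of the DKO tumors and to 10 without either replicate 3 or replicate 4 of the KEAP1-KO tumors. The DKO tumor of replicate 4 was the lowest of its group in 25 of the 28 members, and the KEAP1-KO tumor of replicate 2 was the highest of its group in 18. Under quantile normalization 8 members were lower and 1 was higher, the ATPase Psmc2, which read 9.68, 9.70, 9.59 and 9.75 in KEAP1-KO and 9.89, 9.82, 9.89 and 9.74 in DKO tumors.

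Psmd11 again had the largest difference of the called members. It was 11.41, 11.67, 11.42 and 11.55 in KEAP1-KO tumors and 10.70, 10.83, 10.85 and 10.68 in DKO tumors, -0.75 ± 0.07 apart (adjusted p = 3.51e-06). Psmd1 was 11.57, 11.79, 11.59 and 11.67 against 11.17, 11.34, 11.25 and 11.01 (-0.46 ± 0.06, adjusted p = 0.000219), and -0.30 apart under quantile normalization. The ubiquitin receptor Psmd4 was 10.25, 10.26, 10.15 and 10.17 against 9.70, 9.85, 9.91 and 9.65 (-0.43 ± 0.07, adjusted p = 0.000764). No DKO tumor reached the lowest KEAP1-KO tumor in any of the 3. Psmd7 was 10.24, 10.39, 10.12 and 10.25 against 9.996, 10.10, 9.97 and 9.77 (-0.29 ± 0.08, adjusted p = 0.0262), with nearly touching groups, and its call was lost without replicate 3 or 4 of DKO or 1, 2 or 4 of KEAP1-KO (-0.29 to -0.23). Psmd12 and Psmd3, which rose in Experiment A, did not pass the test here. Psmd12 was 9.86, 9.96, 9.94 and 9.82 against 9.70, 9.77, 9.75 and 9.36 (-0.25 ± 0.10, adjusted p = 0.153) and Psmd3 was 11.27, 11.38, 11.24 and 11.15 against 11.01, 11.12, 11.14 and 10.87 (-0.23 ± 0.08, adjusted p = 0.0967).

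In the alpha ring 5 of 7 rows fell. Psma5 was 10.14, 10.28, 10.06 and 10.26 in KEAP1-KO tumors and 9.51, 9.54, 9.74 and 9.35 in DKO tumors (-0.65 ± 0.08, adjusted p = 4.02e-05), well apart in all libraries. Psma3 had a difference of similar size with far wider groups, 7.91, 8.28, 7.40 and 7.78 against 7.48, 6.82, 7.34 and 6.98 (-0.69 ± 0.18, adjusted p = 0.0203), and these overlapped. Psma7 was 10.49, 10.62, 10.55 and 10.52 against 10.32, 10.28, 10.36 and 10.18 (-0.26 ± 0.05, adjusted p = 0.00594). The groups of Psma7 lay apart, and its call ended under quantile normalization (-0.15, adjusted p = 0.0589) and without the trend in the fit (adjusted p = 0.114). Psma4 was 9.82, 9.93, 9.90 and 9.83 against 9.66, 9.60, 9.66 and 9.24 (-0.33 ± 0.09, adjusted p = 0.0269), and Psma1 was 9.55, 9.85, 9.70 and 9.66 against 9.40, 9.47, 9.50 and 9.15 (-0.31 ± 0.08, adjusted p = 0.029). Leaving out 1 library ended 3 of these calls. For Psma3 it was replicate 2 or 4 of DKO or 1 or 2 of KEAP1-KO (-0.67 to -0.54), for Psma4 replicate 4 of DKO or 2, 3 or 4 of KEAP1-KO (-0.34 to -0.23), and for Psma1 replicate 1 or 4 of DKO or 2, 3 or 4 of KEAP1-KO (-0.32 to -0.24). The difference of Psma3 shrank to -0.27 (adjusted p = 0.185) when all rows of the gene were summed, and its call also ended with the replicate block (adjusted p = 0.0589).

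In the beta ring 4 of 8 rows fell, and here the catalytic Psmb5 was among them. It was 9.67, 9.76, 9.52 and 9.61 in KEAP1-KO tumors and 9.31, 9.16, 9.34 and 8.95 in DKO tumors (-0.45 ± 0.09, adjusted p = 0.00568), without overlap. Psmb4, which did not pass the test in Experiment A, was 9.97, 10.09, 9.91 and 10.11 against 9.49, 9.47, 9.63 and 9.25 (-0.56 ± 0.09, adjusted p = 0.00058), also without overlap. The structural subunits Psmb3 and Psmb1 moved less. Psmb3 was 9.81, 9.95, 9.80 and 9.76 against 9.54, 9.63, 9.74 and 9.48 (-0.23 ± 0.06, adjusted p = 0.034), and Psmb1 was 10.94, 11.02, 10.95 and 10.96 against 10.81, 10.76, 10.83 and 10.65 (-0.20 ± 0.06, adjusted p = 0.0322). Their calls were lost in 11 and 12 of 19 alternatives, 6 of them each by leaving out 1 library (for Psmb3 replicates 1, 2 and 4 of DKO and 1, 2 and 3 of KEAP1-KO, -0.24 to -0.19, and for Psmb1 replicates 2 and 4 of DKO and all 4 of KEAP1-KO, -0.21 to -0.17). Under quantile normalization the differences were -0.12 for Psmb3 (adjusted p = 0.221) and -0.071 for Psmb1 (adjusted p = 0.45), and without the 20 highest rows -0.14 and -0.12. Psmb6 was 9.33, 9.52, 9.41 and 9.40 against 9.18, 9.12, 9.49 and 8.97 and did not pass the test (-0.23 ± 0.09, adjusted p = 0.134), the DKO tumor of replicate 3 lying among the KEAP1-KO tumors. Without that tumor Psmb6 was called (-0.33, adjusted p = 0.00757).

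Of the ATPases, Psmc1 and Psmc5 fell. Psmc1 was 9.61, 9.76, 9.71 and 9.77 against 9.52, 9.35, 9.64 and 9.24 (-0.28 ± 0.08, adjusted p = 0.0414). Psmc5 was 9.48, 9.60, 9.55 and 9.60 against 9.40, 9.28, 9.38 and 9.14 (-0.26 ± 0.08, adjusted p = 0.0436). Both calls lay near the threshold and were lost in 10 and 12 of 19 alternatives. Leaving out replicate 2 or 4 of DKO or 2, 3 or 4 of KEAP1-KO was enough for either (-0.28 to -0.21 for Psmc1 and -0.26 to -0.21 for Psmc5), as was replicate 1 of KEAP1-KO for Psmc5 (-0.29). Quantile normalization gave -0.17 for Psmc1 (adjusted p = 0.166) and -0.15 for Psmc5 (adjusted p = 0.204). The assembly chaperone Psmd5, whose call held in all alternatives, was at 9.72, 9.90, 9.85 and 9.93 in KEAP1-KO tumors and 9.13, 9.23, 9.33 and 9.03 in DKO tumors (-0.67 ± 0.09, adjusted p = 0.000143).

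A set of 12 members was called higher in KEAP1-KO than WT tumors of Experiment A and lower in DKO than KEAP1-KO tumors of Experiment B, contrasts that share no library. These were Psma1, Psma4, Psma5, Psma7, Psmb1, Psmb3, Psmc5, Psmd1, Psmd4, Psmd5, Psmd7 and Psmd11, or 12 of the 15 that rose and 12 of the 16 that fell. This pair of calls was made for 1.69% of all rows tested and for 5.98% of those with a mean of at least 7. The calls of Psma1, Psma4, Psmb1, Psmb3, Psmc5, Psmd4 and Psmd7 in one or both of these contrasts were lost in 7 to 12 of 19 alternatives. With the replicate number as a block, 7 of the 12 kept both calls, and Psmb1, Psmb3, Psmc5, Psmd4 and Psmd7 did not. No member was called in the reverse order. For 5 of them, namely Psma5, Psmd1, Psmd4, Psmd5 and Psmd11, the same pair of calls was made in cultured cells, where both contrasts share the KEAP1-KO libraries. The falls of Psmd1 and Psmd4 in cells were not called with median centring (adjusted p = 0.176 and 0.088) or without the trend, nor that of Psmd1 with the replicate block (adjusted p = 0.0833). In cells 2.16% of all rows tested had it, and 6.23% of those with a mean of at least 7.

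**Figure D2:**
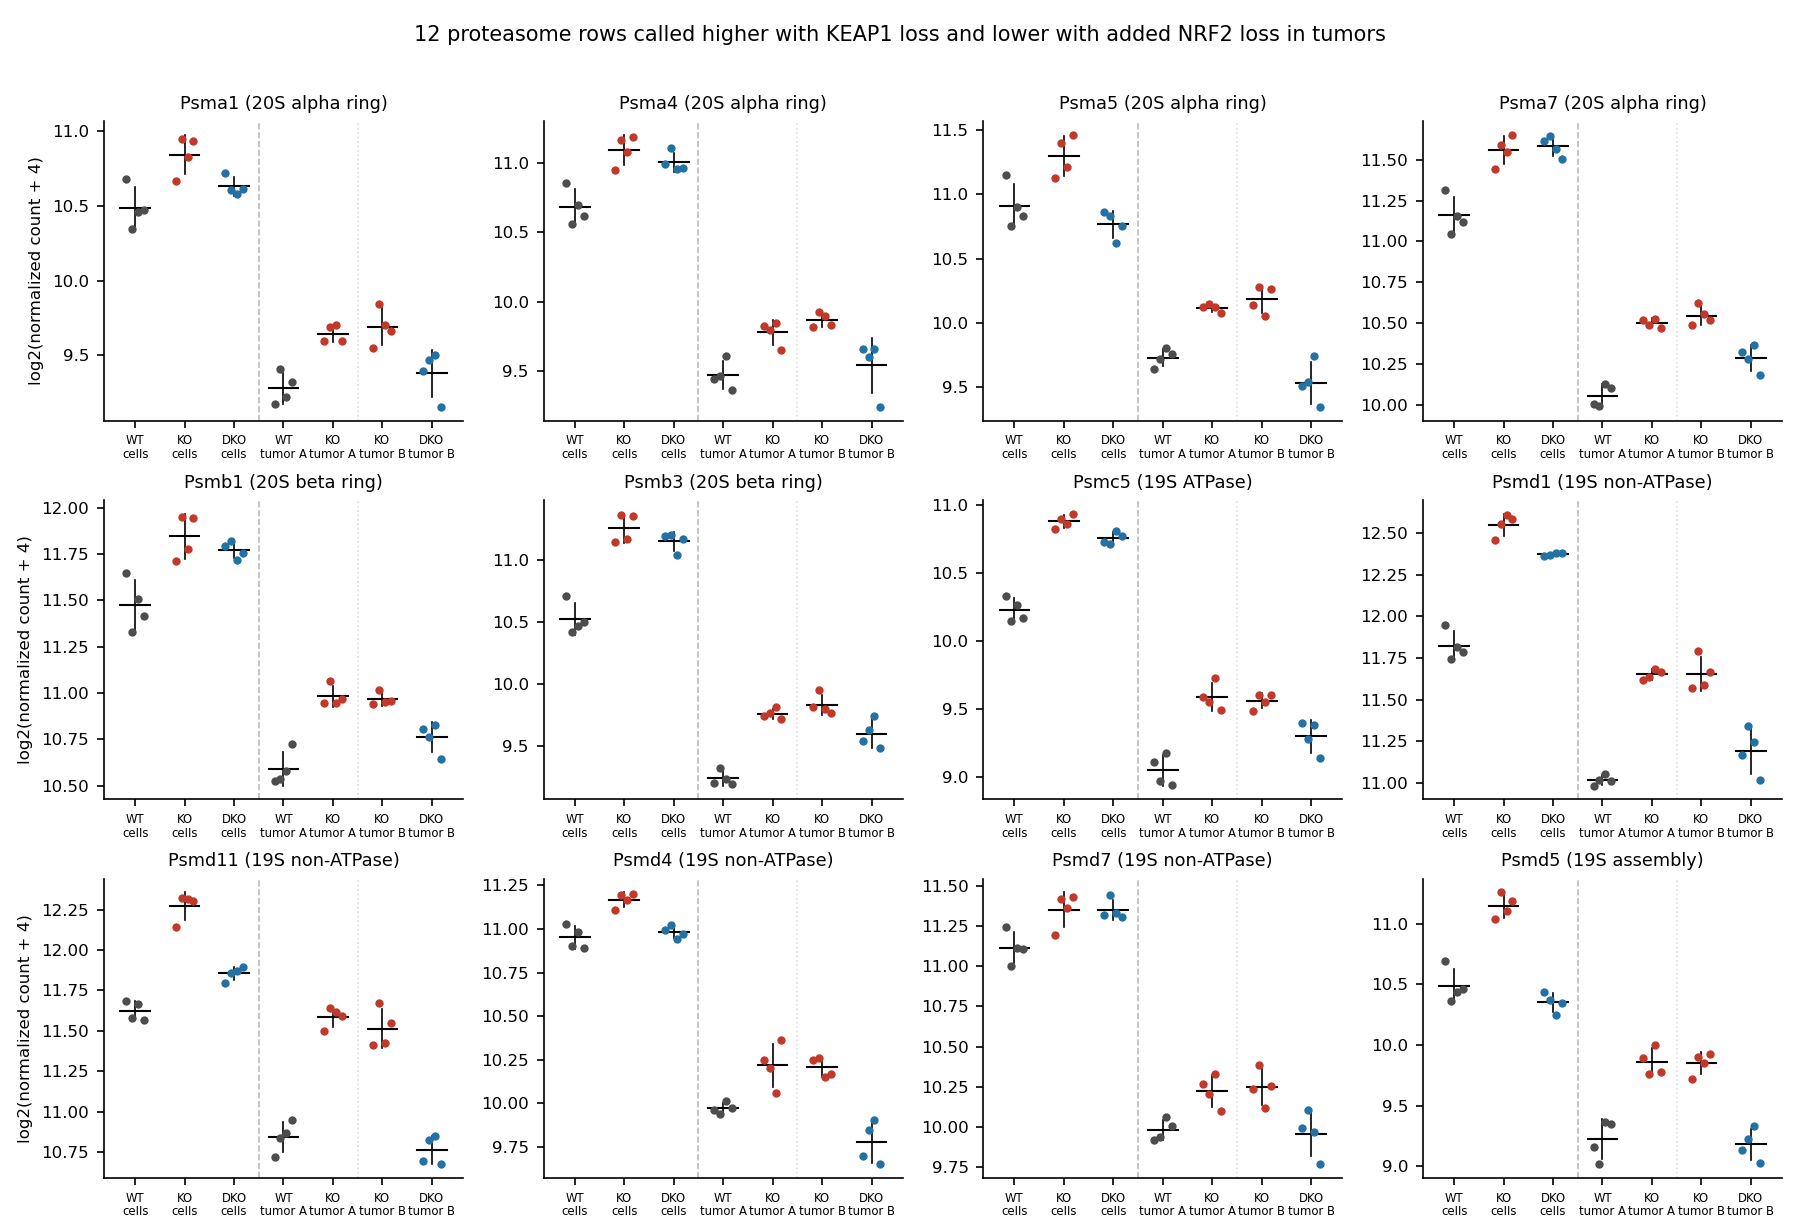
Level of 12 proteasome rows, as log2(normalized count + 4) on y axes that do not start at 0, in each of 28 libraries (points), by group on the x axis (KO, KEAP1-KO). Horizontal lines are means and vertical lines 1 SD of 4 libraries. In every panel the KEAP1-KO tumors of both experiments lie at like levels, above the WT tumors and the DKO tumors beside them, and the tumors of each genotype lie below the cells of that genotype.

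The antioxidant response element, through which NRF2 and NFE2L1 act with small MAF proteins, has the core letters TGACNNNGC, and TGAGNNNGC is a frequent variant. Both were sought on both strands in the 250 bases before the start of each gene in the RefSeq promoter table (build GRCm38.p6), which held 34 of the 40 members. A match was found for 11 of 34 members (32.4%) and for 6932 of 27025 genes of the table (25.7%). With TGACNNNGC alone these were 5 of 34 (14.7%) and 11.5%. Of the 12 rows that rose and fell in tumors, 10 were in the table, and 4 of 10 held a match to either motif and 0 of 10 to TGACNNNGC. The matches in these 4 are shown as the gene reads, 5′ to 3′, with the matched letters in capitals, because these members moved together.
Psma4, chr9:54950717-54950755: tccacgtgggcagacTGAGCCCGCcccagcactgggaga
Psmb3, chr11:97703409-97703433: caagagcgttgacccTGAGAAAGCc
Psmd1, chr1:86064380-86064418: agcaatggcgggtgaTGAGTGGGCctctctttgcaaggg
Psmd5, chr2:34871092-34871130: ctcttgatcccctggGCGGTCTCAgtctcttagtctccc
The matches of Psma4, Psmb3 and Psmd1 lie on the strand of the gene and that of Psmd5 on the other strand. Psma4 has its match 127 to 119 bases before the start, Psmb3 10 to 2 bases, Psmd1 224 to 216 bases and Psmd5 153 to 145 bases. Psma4, Psmb3 and Psmd1 are on the + strand of the build and Psmd5 is on the - strand. A match describes letters and not binding.

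The core motif TGACNNNGC was present before the catalytic subunits Psmb5 and Psmb6, shown here because their rows did not follow the pair of calls above. Psmc6, Psmd9 and Psmd12 held it too.
Psmb5, chr14:54618019-54618057: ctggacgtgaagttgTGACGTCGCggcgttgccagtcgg
Psmb6, chr11:70525333-70525356: gcggactaaagagagTGACGGAGC
Psmb5 is on the - strand and its match lies 47 to 39 bases before the start, and Psmb6 is on the + strand with the match 9 to 1 bases before it. Psmd11, the called member with the largest difference within each tumor experiment, had neither motif in the 250 bases before its start on the + strand, chr11:80428365-80428614, which says only that these letters are not in this window.
Psmd11: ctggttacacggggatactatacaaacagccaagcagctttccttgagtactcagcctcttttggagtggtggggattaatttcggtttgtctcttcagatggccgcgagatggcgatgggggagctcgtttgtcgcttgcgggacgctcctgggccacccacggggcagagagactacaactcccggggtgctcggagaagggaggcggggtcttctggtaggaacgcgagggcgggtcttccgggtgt
Psma5, at chr3:108256676-108256925 on the + strand, had neither.
Psma5: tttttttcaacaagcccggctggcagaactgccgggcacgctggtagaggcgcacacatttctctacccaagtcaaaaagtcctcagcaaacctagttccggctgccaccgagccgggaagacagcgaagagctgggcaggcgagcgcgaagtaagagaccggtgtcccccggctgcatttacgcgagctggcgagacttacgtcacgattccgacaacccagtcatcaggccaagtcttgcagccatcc

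The KEAP1-KO tumors of the separate experiments gave like levels of the members, as they did for most rows of the table. Of the 39 members tested 0 were called between Experiments B and A (limma), 2 had an unadjusted p under 0.05, and 0.164% of all rows tested were called. The median difference over the 28 well measured members was 0.024, and the groups overlapped for 28 of 28, while 2.55% of all rows lay higher and 1.56% lower without overlap, and 1.89% and 2.28% of those with a mean of at least 7. Psmd11 was 11.59 ± 0.06 (SD, n = 4) in Experiment A and 11.52 ± 0.12 in Experiment B, and Psma5 was 10.12 ± 0.03 and 10.18 ± 0.11.

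DKO tumors were also set against WT tumors, which grew in different experiments and share libraries with both contrasts above, so that genotype and experiment cannot be told apart. Of 39 members tested, 4 were higher and 3 lower, against 4.57% and 5.99% of all rows and 11.4% and 22.7% of those with a mean of at least 7. The split moved with the scaling, to 9 higher and 2 lower under quantile normalization and without the 20 highest rows, and to 5 and 2 with median centring. Without the trend in the fit it was 1 higher and 2 lower, and with only the groups compared 1 and 3. Psma3 (-0.57 ± 0.18, adjusted p = 0.0475), Psmd6 (-0.47 ± 0.10, adjusted p = 0.00707) and Psmb4 (-0.44 ± 0.09, adjusted p = 0.00381) were lower. Psmd6, a lid subunit, read 8.35, 8.36, 8.5 and 7.95 in DKO tumors. The higher rows were Psmd12 (0.39 ± 0.10), Psmb3 (0.36 ± 0.06), Psmc5 (0.25 ± 0.08) and Psma7 (0.23 ± 0.05), with adjusted p = 0.0193, 0.00171, 0.0467 and 0.011. Psma7 was not called without the trend (adjusted p = 0.14) or with only the groups compared (adjusted p = 0.0567). The calls of Psmd12 (0.34 to 0.37), Psmc5 (0.21 to 0.27) and Psma3 (-0.64 to -0.46) were lost without any of 5, 6 and 7 single libraries, among them replicate 2 and replicate 3 of the DKO tumors and replicates 2 and 4 of the WT tumors for all 3. With all rows of the gene summed Psma3 differed by -0.12 (adjusted p = 0.589), and its call was lost in 13 of 18 alternatives. Psmd11, with the largest called difference within each experiment, was -0.08 apart (adjusted p = 0.537).

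Leukocyte markers moved opposite to the proteasome rows in tumors. Of 14 leukocyte marker rows listed, 12 were tested. In Experiment A 11 of 12 were lower in KEAP1-KO than WT tumors, against 7.49% of all rows tested. In Experiment B 9 of 12 were higher in DKO than KEAP1-KO tumors, against 4.22% of all rows tested. The summed normalized count of the 14 marker rows ranged from 7441.9 to 9058 in WT tumors and from 2143.7 to 2892.9 in the KEAP1-KO tumors beside them. In Experiment B it ranged from 3695.8 to 4423.4 in KEAP1-KO and from 6239.4 to 8817.3 in DKO tumors. Ptprc, which encodes the pan-leukocyte antigen CD45, was 9.01, 8.92, 8.89 and 9.01 in WT and 6.69, 6.71, 6.27 and 6.87 in KEAP1-KO tumors in Experiment A. In Experiment B it was 7.22, 7.69, 7.29 and 7.58 in KEAP1-KO and 8.62, 8.44, 8.64 and 8.15 in DKO tumors. Ptprc thus separated the genotypes in both experiments. It was also called higher in the KEAP1-KO tumors of Experiment B than in those of Experiment A, a call lost in 8 of 18 alternatives. The marker sums of these KEAP1-KO tumors did not overlap between the experiments either. Fibroblast markers summed to 4113.5 to 9166.3 in WT and 1605.1 to 3939.7 in KEAP1-KO (A), and to 2196.4 to 2781.7 in KEAP1-KO (B) and 9974.8 to 12948.1 in DKO. Skeletal muscle markers summed to 6.8 to 260.8 in DKO tumors and to at most 25.1 in the other tumors. The part of these cells in the tumor differences was not tested.

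**Figure D3:**
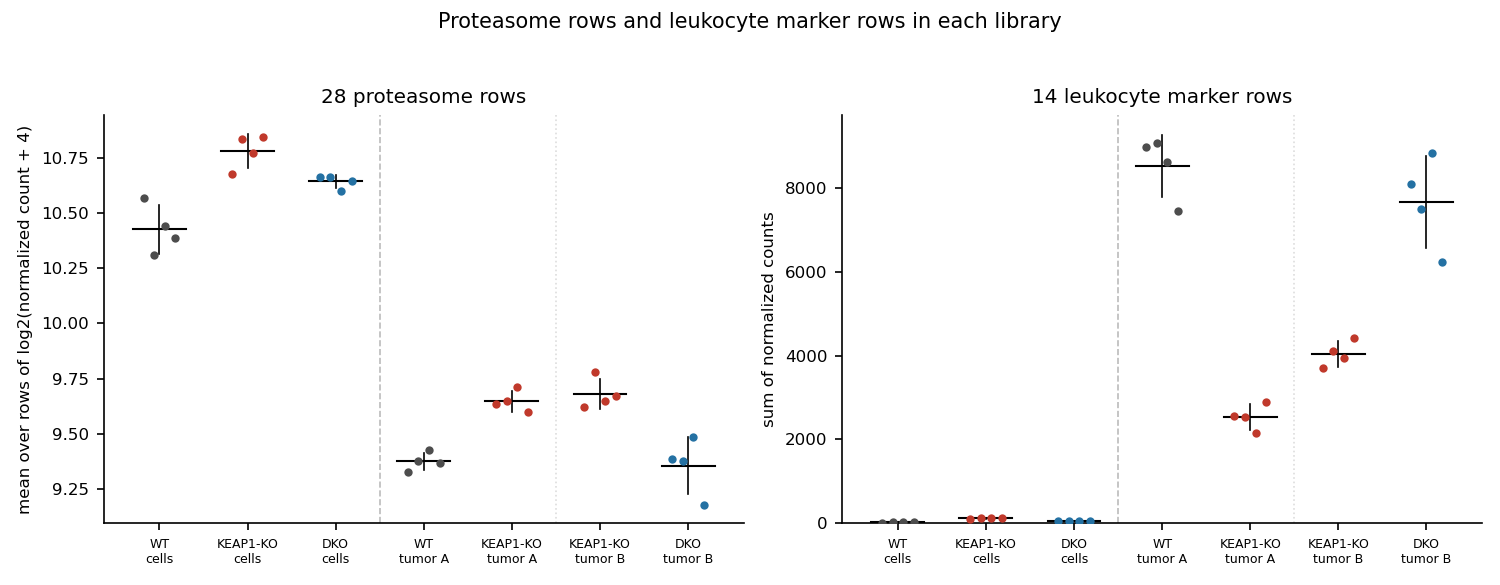
Left, mean level of the 28 well measured proteasome rows (log2 scale, y axis not from 0), and right, summed normalized counts of 14 leukocyte marker rows, in each of 28 libraries (points) by group (x axis). Horizontal lines are means and vertical lines 1 SD of 4 libraries. The KEAP1-KO tumors lie above the other tumors on the left and below them on the right, whereas the cells have marker sums of 10.3 to 125.4.

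Cultured cells hold no host leukocytes by design, and 5 of 14 marker rows were at 0 in all of their libraries. Their marker sums were 10.3 to 35.6 in WT, 109.6 to 125.4 in KEAP1-KO and 51.3 to 57.2 in DKO cells, mostly from Cd68, a lysosomal protein gene that other cells express too. In cells 19 of 35 members tested were higher in KEAP1-KO than in WT cells and 0 were lower. Of all 29744 rows tested 8.13% were higher and 7.33% lower, and of rows with a mean of at least 7, 21.7% were higher. Groups did not overlap for 15 of the 28 well measured members, each higher in KEAP1-KO, against 9.9% of all rows and 22.7% of those with a mean of at least 7. Their median was 0.36, against 0.0034 over all rows at that level. The rows called higher in tumors were all called higher here, 15 of 15, which is 15 of the 19 in cells. Both calls were made for 15 of the 35 members tested in tumors and in cells, for 2.94% of all 28192 rows tested in both and for 9.51% of those with a mean of at least 7. The other four were Psmb6, Psmc1, Psmd10 and Psmd14.

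Of the called members Psmd12 had the largest difference, at 10.25, 10.04, 10.28 and 10.10 in WT cells and 10.78, 10.93, 10.92 and 11.02 in KEAP1-KO cells (0.74 ± 0.06, adjusted p = 4.33e-06). Psmb3 was 10.71, 10.42, 10.47 and 10.50 against 11.14, 11.36, 11.17 and 11.35 (0.73 ± 0.07, adjusted p = 1.48e-05). Psmd1 was 11.95, 11.74, 11.81 and 11.79 against 12.46, 12.56, 12.61 and 12.59 (0.73 ± 0.05, adjusted p = 2.91e-07). Each of these groups lay clear of the other in all libraries. The next were Psmd5, at 10.69, 10.36, 10.44 and 10.47 against 11.04, 11.26, 11.10 and 11.19 (0.66 ± 0.07), Psmc5, at 10.33, 10.14, 10.26 and 10.17 against 10.82, 10.89, 10.86 and 10.93 (0.65 ± 0.05), and Psmd11, at 11.69, 11.58, 11.67 and 11.57 against 12.15, 12.32, 12.32 and 12.30 (0.65 ± 0.05). Their adjusted p-values were 4.12e-05, 1.14e-06 and 9.24e-07. Psmd3 was 11.68, 11.54, 11.64 and 11.56 against 12.12, 12.18, 12.21 and 12.30 (0.60 ± 0.04, adjusted p = 1.09e-06).

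The rest of the called rows differed by 0.22 to 0.50, and in part of them the groups overlapped. Psma5 was 11.15, 10.75, 10.90 and 10.83 in WT cells and 11.12, 11.40, 11.21 and 11.46 in KEAP1-KO cells (0.39 ± 0.09, adjusted p = 0.0127), and the WT library of replicate 1 lay within the KEAP1-KO group. Psmd4 was 11.03, 10.90, 10.98 and 10.89 against 11.11, 11.19, 11.17 and 11.20 (0.22 ± 0.04, adjusted p = 0.00249). The alpha subunits Psma7 and Psma4 kept their groups apart, with 11.32, 11.05, 11.16 and 11.12 against 11.44, 11.59, 11.55 and 11.65 and 10.86, 10.56, 10.69 and 10.62 against 10.94, 11.16, 11.08 and 11.18 (0.40 ± 0.06 and 0.41 ± 0.07). So did Psmb1, with 11.65, 11.33, 11.51 and 11.42 against 11.71, 11.95, 11.78 and 11.95 (0.37 ± 0.07). Psma1, with 10.68, 10.34, 10.46 and 10.47 against 10.66, 10.95, 10.83 and 10.94 (0.36 ± 0.08), and Psmd7, with 11.24, 11.004, 11.11 and 11.11 against 11.20, 11.42, 11.36 and 11.43 (0.24 ± 0.06), overlapped. The call of Psmd7 was lost without replicate 2 of the WT cells or replicate 2, 3 or 4 of the KEAP1-KO cells (0.20 to 0.23, adjusted p = 0.0522 to 0.0632). Members moved together between libraries of a group: the WT library of replicate 1 was the highest of its group in 25 of 28 members, that of replicate 2 the lowest in 25 and the KEAP1-KO library of replicate 1 the lowest in 24.

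Of the catalytic subunits, called rows in cells were Psmb7 and Psmb6. Psmb7 rose by 0.50 ± 0.06 (adjusted p = 4.43e-05) and Psmb6 by 0.32 ± 0.07 (adjusted p = 0.00709), with 10.59, 10.32, 10.41 and 10.36 in WT and 10.57, 10.85, 10.74 and 10.82 in KEAP1-KO cells. Psmb5 did not pass the test, at 10.77, 10.43, 10.61 and 10.60 against 10.63, 10.76, 10.65 and 10.76 (0.10 ± 0.07, adjusted p = 0.417). Whether these 3 differ from each other was not tested.

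Some members fell with added loss of NRF2 in cells. Of 35 tested, 6 were lower in DKO than in KEAP1-KO cells and 1 was higher, while 4.85% of all rows were lower and 3.98% higher, and of rows with a mean of at least 7, 13.4% and 16.3%. The split became 11 lower and 2 higher under quantile normalization, and 10 lower and 2 higher without the 20 highest rows. With median centring it was 4 lower and 1 higher, and without the trend in the fit 3 lower and 0 higher. All 7 calls fell among the 28 well measured members. Their median was -0.11, against 0.0057 over all rows at that level. Of the called members the assembly chaperone Psmd5 fell most, to 10.44, 10.37, 10.25 and 10.35 in DKO cells (-0.79 ± 0.07, adjusted p = 1.23e-05), below all KEAP1-KO libraries and overlapping the WT libraries. Psma5 fell to 10.86, 10.83, 10.62 and 10.75 (-0.53 ± 0.09, adjusted p = 0.0027) and Psmd11 to 11.80, 11.86, 11.87 and 11.90 (-0.42 ± 0.05, adjusted p = 7.22e-05). These were the largest falls among the called members. Psma3 differed by -0.47 ± 0.15 without passing the test (adjusted p = 0.0797) and was called in 3 of 19 alternatives.

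Psmd6, at 9.94, 9.68, 9.80 and 9.82 in WT, 9.79, 9.88, 9.92 and 9.90 in KEAP1-KO and 9.54, 9.60, 9.48 and 9.61 in DKO cells, fell by a difference of -0.32 ± 0.06 (adjusted p = 0.00371) without having risen with loss of KEAP1. Psmd4 fell to 10.99, 11.03, 10.94 and 10.97 (-0.18 ± 0.04, adjusted p = 0.0113), and Psmd1 to 12.37, 12.37, 12.38 and 12.38 (-0.18 ± 0.05, adjusted p = 0.0289). The call for Psmd1 was lost in 10 of 19 alternatives, 7 of them leaving out 1 library (each DKO library, and replicates 2, 3 and 4 of the KEAP1-KO cells), with values between -0.18 and -0.16. Psmc2 rose, from 10.70, 10.88, 10.84 and 10.87 in KEAP1-KO to 11.11, 11.18, 11.14 and 11.05 in DKO cells (0.30 ± 0.06, adjusted p = 0.00587), against 10.82, 10.63, 10.68 and 10.56 in WT cells. Further DKO levels in cells were 11.19, 11.20, 11.03 and 11.17 for Psmb3, 10.80, 10.78, 10.82 and 10.71 for Psmd12 and 12.30, 12.31, 12.32 and 12.37 for Psmd3. They were 10.73, 10.71, 10.81 and 10.77 for Psmc5, 11.61, 11.64, 11.56 and 11.51 for Psma7, 10.99, 11.10, 10.96 and 10.96 for Psma4 and 11.79, 11.82, 11.72 and 11.76 for Psmb1. For Psmd7 they were 11.32, 11.44, 11.33 and 11.31, for Psmb6 10.77, 10.79, 10.66 and 10.79 and for Psmc1 10.93, 11.03, 10.92 and 10.96. In each of these rows all DKO libraries lay above all WT libraries. The groups overlapped for Psma1, at 10.72, 10.61, 10.58 and 10.61 in DKO cells, Psmb5, at 10.68, 10.52, 10.52 and 10.58, and Psmb4, at 11.08, 10.84, 10.73 and 10.98.

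Part of the family was above WT in DKO cells. Set against WT cells, with which the KEAP1-KO contrast shares its controls, 15 of 35 members were higher and 1 was lower, against 8.46% and 9.2% of all rows tested and 24.9% and 23.2% of rows with a mean of at least 7. The largest called differences were those of Psmd3 (0.72 ± 0.04, adjusted p = 2.01e-07), Psmb3 (0.62 ± 0.07, adjusted p = 4.99e-05) and Psmd12 (0.61 ± 0.06, adjusted p = 2.07e-05). Psmc2, which did not pass the test between KEAP1-KO and WT cells, was among the 15, and the count became 9 higher and 0 lower without the trend in the fit. Psmd6 was the row below WT (-0.25 ± 0.06, adjusted p = 0.00916). In contrast, Psma5 (-0.14 ± 0.09), Psmd5 (-0.14 ± 0.07) and Psmd4 (0.03 ± 0.04) did not differ from WT by the test, at adjusted p = 0.355, 0.239 and 0.671. The DKO line is 1 clone, so clone and added genotype cannot be told apart.

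The effects of genotype were compared between tumors and cells as differences of differences. For loss of KEAP1, 0 of 40 members were called (limma), 3 had an unadjusted p under 0.05, and 5.38% of all rows were called. The median over the well measured members was -0.1. For loss of NRF2, 4 of 40 members were called, each with a more negative effect in tumors, while 1.55% of all rows were lower and 8.76% of those with a mean of at least 7. These were Psmd3 (-0.35 ± 0.09, adjusted p = 0.0315), Psmd11 (-0.34 ± 0.08, adjusted p = 0.0199), Psmd1 (-0.29 ± 0.08, adjusted p = 0.0428) and Psma7 (-0.28 ± 0.08, adjusted p = 0.0424). The count fell to 0 under quantile normalization, where the 4 differences were -0.21 to -0.084, without the 20 highest rows and without the trend in the fit. It ranged from 0 to 5 when single libraries were left out. Without replicate 1 of the KEAP1-KO cells or replicate 2 of the KEAP1-KO tumors it was 0, without replicate 2 of the KEAP1-KO cells, replicate 3 of the DKO cells or replicate 1 or 4 of the DKO tumors it was 1, and without replicate 3 of the KEAP1-KO cells, replicate 1, 2 or 4 of the DKO cells or replicate 4 of the KEAP1-KO tumors it was 2.

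All 28 well measured members were lower in tumors than in cells of the same genotype. Of the 40 members, 28 were lower and 4 higher in WT tumors, 28 and 3 in KEAP1-KO tumors and 29 and 1 in DKO tumors. All rows tested gave 14.1%, 16.9% and 15.9% lower and 24.7%, 27% and 27.6% higher, and rows with a mean of at least 7 gave 56.2%, 57.9% and 58.6% lower. Median differences of the 28 rows were -1.12, -1.12 and -1.28, while those over all rows at that level were -0.46, -0.49 and -0.59. The size depends on the scaling, which moved the median of all rows from 0.2, 0.17 and 0.23 to -0.062, 0 and -0.026 under quantile normalization, and the medians of the 28 rows to -0.59, -0.59 and -0.61. Host cells are part of a tumor library and not of a culture, and their part in these differences was not tested.

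Of the 28 well measured members Psma3 differed most in each genotype, by -1.31 ± 0.17, -1.61 ± 0.15 and -1.81 ± 0.17 in WT, KEAP1-KO and DKO. It was 9.39, 8.72, 9.08 and 8.96 in WT cells, 9.36, 9.59, 9.29 and 9.47 in KEAP1-KO cells and 9.21, 8.87, 8.62 and 9.14 in DKO cells, and in Experiment A 7.55, 7.83, 7.90 and 7.64 in WT and 7.66, 8.06, 7.75 and 7.71 in KEAP1-KO tumors. Psmb3 followed in KEAP1-KO (-1.46 ± 0.06), where Psmc1 came next (-1.36 ± 0.06). In WT and DKO the next were Psmb6 (-1.28 ± 0.08 and -1.56 ± 0.08) and Psmb3 (-1.28 ± 0.07 and -1.55 ± 0.07). The least lowered of these 28 was the assembly chaperone Psmd10, at -0.46 ± 0.10, -0.59 ± 0.09 and -0.64 ± 0.10. For Psmd11 the difference was -0.78 ± 0.06 in WT, -0.72 ± 0.05 in KEAP1-KO and -1.09 ± 0.06 in DKO, and under quantile normalization it was -0.19, -0.11 and -0.31.

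The 20S core and the 19S cap are set side by side here, without a test between them, and their counts stand against the shares over all rows given above for each comparison. Of 13 well measured core rows, 7 rose with loss of KEAP1 in tumors, with a median difference of 0.31, and of 12 cap rows also 7, with 0.25. With added loss of NRF2 9 core rows fell, with a median of -0.31, and 6 cap rows, with -0.27. In cells 8 core and 9 cap rows rose (0.37 and 0.31), and then 1 core row fell while 4 cap rows fell and 1 rose (-0.11 and -0.11). Over each library the mean of the core rows minus that of the cap rows was -0.34 ± 0.05 (SD, n = 4) in WT cells, -0.41 ± 0.03 in KEAP1-KO cells and -0.47 ± 0.06 in DKO cells. In tumors it was -0.5 ± 0.06 in WT and -0.54 ± 0.04 in KEAP1-KO of Experiment A, and -0.5 ± 0.04 in KEAP1-KO and -0.58 ± 0.07 in DKO of Experiment B. The libraries of the tumor groups overlapped in this value within each experiment. Those of WT and KEAP1-KO cells were all less negative than the tumors of their genotype, and those of DKO cells and tumors overlapped. The sign rests on which rows the table holds and carries no comparison of amounts. As a share of all normalized counts the 40 members took 0.71% in WT, 0.98% in KEAP1-KO and 0.89% in DKO cells, 0.47% and 0.59% in the WT and KEAP1-KO tumors compared in Experiment A, and 0.61% and 0.51% in the KEAP1-KO and DKO tumors compared in Experiment B.

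**Figure D4:**
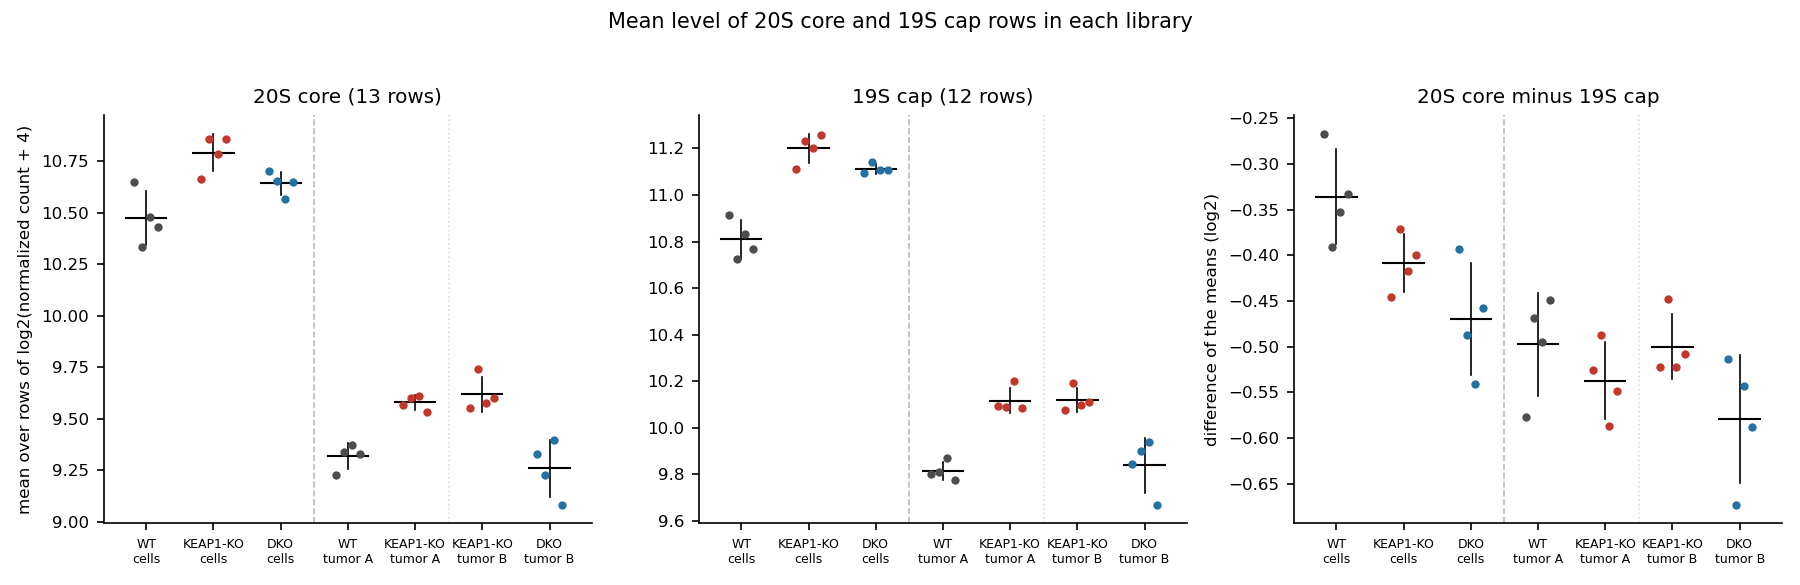
Mean level of 13 rows of the 20S core, of 12 rows of the 19S cap, and their difference (y axes, log2 scale, not from 0), in each of 28 libraries (points) by group (x axis). Horizontal lines are means and vertical lines 1 SD of 4 libraries. Core and cap are both highest in KEAP1-KO cells and both higher in KEAP1-KO than in WT or DKO tumors, and their difference runs from -0.27 in a WT cell library to -0.67 in a DKO tumor.

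The 12 low members gave little. None of those tested was called with loss of KEAP1 or of NRF2, in tumors or in cells. Psme1, which with Psme2 forms the PA28 activator induced by interferon, was not tested in tumors, and 5 low rows were not tested in cells. Psme2 was 4.13, 4.12, 3.50 and 3.64 in WT and 3.81, 2, 2 and 2 in KEAP1-KO tumors in Experiment A, and 2, 2.95, 2 and 3.27 in KEAP1-KO and 3.40, 3.94, 2 and 3.05 in DKO tumors in Experiment B, while all WT and KEAP1-KO cells stood at the floor. Its difference with loss of KEAP1 in tumors was -1.39 ± 0.48 (adjusted p = 0.0684), and without the lone KEAP1-KO tumor above the floor, replicate 1, it was called lower (adjusted p = 0.0112). The KEAP1-KO group is then wholly at the floor, so no size is given for that setting. It was also called lower with the replicate block (-1.39, adjusted p = 0.0457) and with all rows of the gene summed (-1.56, adjusted p = 0.00168). Psme2b, a gene row with a symbol close to that of Psme2, with which it may share reads, was 3.79, 3.28, 3.72 and 3.54 in WT tumors and 2.87, 2.90, 3.14 and 2.31 in KEAP1-KO tumors. It was 3.32, 2.76, 3.47 and 2 and 3.9, 3.19, 4.5 and 3.65 in Experiment B.

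The members higher in tumors than in cells were all low rows: Psme2, Psme2b, Psme4 and Psmd8 for WT, Psme2b, Psmd8 and Psmb11 for KEAP1-KO and Psme2b for DKO. Psme2b stood at 2 in all KEAP1-KO and DKO cells, so no size of its change is given, and Psme4, which encodes the activator PA200, was at most 2.36 in WT cells and 2.56 to 3.23 in WT tumors. Psmd8, a lid subunit, was 3.71, 2.86, 2.86 and 3.65 in WT cells and 4.68, 4.85, 4.59 and 5.08 in WT tumors (1.53 ± 0.29, adjusted p = 9.48e-05). In KEAP1-KO it was 4.16, 4.24, 3.94 and 3.08 in cells and 4.37, 5.65, 5.17 and 5.17 in the Experiment A tumors (1.12 ± 0.25 over both experiments). Psmb11, the peptidase of the thymus, lay near the floor everywhere and read 2.95, 2.52, 2.31 and 2 in KEAP1-KO cells and 2.87, 3.11, 2.57 and 3.56 in the Experiment A tumors (0.58 ± 0.23, adjusted p = 0.0379), a call lost without any of 8 single libraries (0.44 to 0.61): replicates 2, 3 and 4 of the KEAP1-KO cells, replicates 2 and 4 of the KEAP1-KO tumors (A) and replicates 1, 2 and 3 of those in B. It was also lost with median centring (0.33, adjusted p = 0.247) and under quantile normalization (0.35, adjusted p = 0.275).

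The immunoproteasome subunits replace the catalytic subunits in cells exposed to interferon and in immune cells. Of their 3 rows, Psmb9 passed the test in both tumor experiments. It was 5.79, 6.36, 4.97 and 5.25 in WT tumors and 2.64, 3.11, 2.57 and 3.30 in KEAP1-KO tumors (-2.69 ± 0.38, adjusted p = 0.000123), and 3.46, 4.01, 2.82 and 2.89 and 4.81, 4.84, 5.45 and 3.83 in KEAP1-KO and DKO tumors (1.44 ± 0.38, adjusted p = 0.024). Psmb8 was 4.91, 4.75, 4.54 and 4.33 against 2, 2.90, 2 and 3.30 in Experiment A (-2.08 ± 0.57, adjusted p = 0.0235), and 2, 3.11, 3.47 and 2 against 5.25, 4.68, 2 and 3.74 in Experiment B (1.27 ± 0.57, adjusted p = 0.216), where it was called without replicate 3 of the DKO tumors (1.91, adjusted p = 0.0188). The call of Psmb8 in Experiment A was lost in 6 of 18 alternatives, 4 of them leaving out replicate 1 or 2 of the WT or replicate 1 or 3 of the KEAP1-KO tumors (-2.04 to -1.90, adjusted p = 0.057 to 0.0692). That of Psmb9 in Experiment B was lost in 6 of 18, 5 of them leaving out replicate 3 or 4 of the KEAP1-KO or replicate 1, 2 or 3 of the DKO tumors (1.20 to 1.42, adjusted p = 0.0583 to 0.0834). Both are low rows, and their differences have the signs of those of the leukocyte markers given above, whose part in them was not tested. Psmb9 was lower in KEAP1-KO cells as well, at 5.21, 4.90, 5.35 and 4.79 in WT, 3.73, 3.34, 3.27 and 2 in KEAP1-KO and 4.30, 3.96, 3.50 and 2.51 in DKO cells (-1.98 ± 0.42, adjusted p = 0.00616), and the marker sums there are those given above for the cells. Psmb10 was uneven within groups, from 2 to 5.36 over the tumors, and was not called in these comparisons as listed. With all rows of the gene summed it passed the test in Experiment A (-1.13 with loss of KEAP1, adjusted p = 0.0123) and in Experiment B (0.99 with added loss of NRF2, adjusted p = 0.0346).

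Other genes of the pathway were read from lists of named genes, too short for their counts to be set apart from the shares over all rows. With loss of KEAP1 5.61% of all rows and 16.2% of those with a mean of at least 7 were higher in tumors, and 8.13% and 21.7% in cells, while 4.64% and 17.8% were lower in tumors with added loss of NRF2. Of all rows, 7.49% in tumors and 7.33% in cells were lower with loss of KEAP1, and 4.22% were higher in tumors with added loss of NRF2. In cells that added loss gave 4.85% lower and 3.98% higher, and 13.4% and 16.3% of those with a mean of at least 7. Of 9 proteins that bind the cap, 3 rose with loss of KEAP1 in tumors: Sem1, a small lid subunit (0.51 ± 0.08, adjusted p = 0.000246), Usp14, a deubiquitinase of the cap (0.49 ± 0.08, adjusted p = 0.000366), and Txnl1 (0.27 ± 0.08, adjusted p = 0.0256). In Experiment B, 3 of 9 fell with added loss of NRF2 and 1 rose, namely Usp14 (-0.42 ± 0.08), Sem1 (-0.38 ± 0.08) and Akirin2 (-0.62 ± 0.18), which carries proteasomes into the nucleus, against Ube3c (0.18 ± 0.05), a ubiquitin ligase. In cells 6 of 9 rose with loss of KEAP1, led by Uchl5 (0.71 ± 0.06), a deubiquitinase, and its anchor Adrm1 (0.31 ± 0.05) among them, and Ecpas, a low row, fell (-2.02 ± 0.51). With added loss of NRF2 1 of 9 was called in cells, Ube3c (0.30 ± 0.04).

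Of 6 assembly factors of the core, 0 were called in KEAP1-KO against WT tumors (limma), and Psmg3 fell in DKO tumors (-0.43 ± 0.13, adjusted p = 0.0453). In cells Psmg1 rose (0.28 ± 0.08) and Psmg4 fell (-0.53 ± 0.14) with loss of KEAP1. Of 12 rows of ubiquitin and its shuttles, 3 rose in KEAP1-KO tumors: Sqstm1, the autophagy receptor and an NRF2 target (1.15 ± 0.30), Vcp, the segregase that feeds the proteasome (0.37 ± 0.06), and the ubiquitin gene Ubb (0.22 ± 0.05). In DKO tumors 4 of 12 fell, among them the shuttle gene Ubqln2 (-0.36 ± 0.06), and 1 rose, Ubqln1 (0.21 ± 0.05). In cells 2 of 11 rows tested rose with loss of KEAP1, among them Vcp (0.39 ± 0.04), and 2 fell, among them Ubqln2 (-0.31 ± 0.06). With added loss of NRF2 3 of 11 fell in cells, among them Sqstm1 (-1.56 ± 0.43), and 1 rose, Ubqln1 (0.48 ± 0.05).

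Of 7 rows of factors that control proteasome genes, 1 fell and 0 rose with loss of KEAP1 in tumors, and 1 fell and 0 rose with added loss of NRF2. Of 5 tested in cells, 2 rose and 2 fell with loss of KEAP1, and 1 rose and 1 fell with added loss of NRF2. Nfe2l1, one of those called higher in KEAP1-KO cells, stood at the floor in many libraries. It stood at 2 in all WT cells and at 6.05, 5.44, 5.09 and 5.25 in KEAP1-KO cells, and at 2, 5.27, 5.45 and 2 in DKO cells. In Experiment A it read 2, 5.33, 5.97 and 4.88 in WT and 5.22, 2, 5.93 and 2 in KEAP1-KO tumors, and in Experiment B 5.90, 2, 2 and 2 in KEAP1-KO and 5.68, 2, 5.6 and 2 in DKO tumors. The call between KEAP1-KO and WT cells was lost in 0 of 18 alternatives. Between DKO and WT cells the row was called higher in 3 of 17, among them with all rows of the gene summed (1.79, adjusted p = 0.00363). The row jumped between the floor and over 5 within most groups, and no level of the gene is drawn from it. Ddi2, the protease that activates NFE2L1, fell with loss of KEAP1 in tumors (-0.29 ± 0.06, adjusted p = 0.0022) and in cells (-0.51 ± 0.05, adjusted p = 1.11e-05), and it rose with added loss of NRF2 in cells (0.24 ± 0.05, adjusted p = 0.00669). Ngly1, which removes its sugars, fell in cells (-0.56 ± 0.07, adjusted p = 0.000129). Mafg, a small MAF partner and NRF2 target, rose with loss of KEAP1 in cells (0.91 ± 0.21) and fell with added loss of NRF2 in cells (-1.13 ± 0.21) and tumors (-0.71 ± 0.19).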

How the data were processed

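RNA of cultured 3LL cells and of whole tumors was depleted of rRNA, made into directional libraries and quantified by the authors with Salmon against GENCODE mouse transcripts, then transformed in iDEP. The deposited table holds log2 values. The methods speak of TPM, but the lowest value of each library is 2 and low values are whole reads over a library factor, so the authors' log2 values were read as log2(normalized count + 4), and the test planned for TPM was run on them directly. Reads per library, 4222324 to 7524322, were recovered from the same steps. The aligner settings and the way duplicates were treated are not given in the sources used here. No column of per-sample values was left unused.

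A row entered a fit if 4 or more of its libraries reached 5 normalized counts, which kept 34215 rows in tumors, 29744 in cells and 37246 in both together. Differences were fitted with limma 3.58.1 (eBayes with a trend, R 4.3.3) over the groups of tumors, of cells or of both, and p-values were adjusted by Benjamini and Hochberg over all rows of a fit. Tables and figures used Python 3.11.15, pandas 2.3.3 and matplotlib 3.10.9, and the fit was tested on simulated data. Rows were named by rule: members called in opposite directions by the KEAP1-KO and DKO contrasts, the 3 highest and 3 lowest called members of each comparison, Psma5, Psmb5, Psmb6 and Psmd4, and reference rows. Some further members of the same roles are given with a difference only. Members and lists were chosen with earlier results of these data known. The split at a mean of 7 and the sum over all rows of a gene were added after the values were seen. Alternatives changed the scaling, pseudocount, filter, samples in the fit, trend, threshold, row type, block and libraries. Protein sequences and single lung markers were not used here. Some results of the ubiquitin list are not reported here.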

Additional observations from a re-analysis of the deposited data

Results flagged for a closer look

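In sets of 4 libraries of 1 group, a library was set apart where its gap to the nearest other, divided by the range of the group, exceeded the critical value of Dixon's test at 95%. This held for 14 of the 224 sets over the named rows (6.25%). A set with 1 library above the floor and the others at it passes by construction, so no chance rate is set beside this share.

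Of the well measured members, Psma4 in the DKO tumor of replicate 4 was low at 9.2412, beside 9.6012 in the nearest tumor. Psmd11 in the KEAP1-KO cells of replicate 1 was low at 12.1454, beside 12.3039. Psmd7 in the DKO cells of replicate 2 was high at 11.4449, beside 11.3317. That DKO tumor and that library of KEAP1-KO cells were the lowest of their group in 25 and 24 of 28 members. The DKO cells of replicate 2 were the highest of theirs in 10 of 28.

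The low members set apart differ by few reads. Psme2 in the KEAP1-KO tumor of replicate 1 in Experiment A stood at 3.8078, while the other three were at 2. Psme2b in the WT cells of replicate 2 stood at 2.3446 beside 2, and Psmb11 in the KEAP1-KO tumor of replicate 4 in Experiment B at 2.6462 beside 3.1135.

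Among the reference rows, Ptprc in the WT cells of replicate 3 stood at 2.3458 beside 2. Nfe2l1 in the KEAP1-KO tumor of replicate 1 in Experiment B stood at 5.9036 beside 2. Psmb10 was at 2 in the WT cells of replicate 2 beside 5.3004, and at 5.1535 in the DKO cells of replicate 4 beside 4.2259. Psmb8 was at 2.6225 in the WT cells of replicate 2 and at 2.3054 in the KEAP1-KO cells of replicate 3, beside 2 in both. Keap1 was at 7.4667 in the DKO cells of replicate 3 beside 7.3088, and at 7.2963 in the KEAP1-KO tumor of replicate 3 in Experiment B beside 7.4989.

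The effect of added loss of NRF2 differed between tumors and cells for 4 members in the interaction term of the joint fit. It was more negative in tumors by -0.2809 for Psma7, -0.352 for Psmd3, -0.2854 for Psmd1 and -0.3359 for Psmd11. Over all rows tested 1.55% were called more negative in tumors, and 8.76% of those with a mean of at least 7. The calls were lost in 17, 12, 15 and 5 of 27 alternatives in that order, and the count was 0 under quantile normalization, without the 20 highest rows and without the trend.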

How the results depend on the processing

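Counts of called members moved as follows. Those for loss of KEAP1, 15 in tumors and 19 in cells, stayed within 1.5 times under every scaling, pseudocount, filter and choice of libraries tried. They fell to 6 and 7 when a difference of 0.5 was also asked for, and to 2 and 3 over gene and protein-coding rows, of which there are few. The 16 calls for added loss of NRF2 in tumors became 9 under quantile normalization, 10 without the 20 highest rows, 8 with only the groups compared, 8 without the trend, 28 at an unadjusted p under 0.05, 5 with a difference of 0.5 and 2 over gene and protein-coding rows. The 7 in cells became 13 (11 lower), 12 (10 lower), 3 (no trend), 13 (unadjusted), 2 and 1 under the same settings. For DKO against WT tumors 7 became 11 under either scaling, 4 with only the groups compared, 3 without the trend, 15 unadjusted, 1 with a difference of 0.5, 1 over gene and protein-coding rows and 12 with all rows of a gene summed, a setting added after the values were seen. For DKO against WT cells 16 became 9 without the trend, 5 with a difference of 0.5 and 1 over gene and protein-coding rows. The KEAP1-KO tumors of the 2 experiments had 2 calls unadjusted. Tumors against cells gave 7 over gene and protein-coding rows in each genotype. The difference of effects gave 3 unadjusted calls for KEAP1. For NRF2 its 4 calls became 0 under quantile normalization, without the 20 highest rows, without the trend, with a difference of 0.5 and over gene and protein-coding rows, 2 with only the groups compared and 10 unadjusted. The cause was not tested, other than fewer rows or a stricter rule.

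Leaving out single libraries gave 12 to 15 calls for loss of KEAP1 and 8 to 18 for added loss of NRF2 in tumors, 18 to 22 and 6 to 8 in cells, 5 to 9 for DKO against WT tumors, 15 to 17 for DKO against WT cells, and 0 to 5 for the difference of NRF2 effects. The median difference changed sign for DKO against WT cells over gene and protein-coding rows (-0.0283, main 0.233) and for the difference of KEAP1 effects with median centring (0.0607, main -0.0998). Near 0, it also changed sign in 4 of 18 alternatives for DKO against WT tumors (main 0.00535, range -0.196 to 0.102) and in 1 of 18 for the KEAP1-KO tumors of the 2 experiments (-0.0124, main 0.0238).

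No source used here ties the replicate numbers of tumors to mice. Correlations of deviations between same-numbered libraries were -0.034 to 0.04, and every library matched its own number best only between DKO and WT cells. Such values cannot say whether the numbers pair the tumors, since tumors of 1 mouse need not share deviations. With the replicate block the counts were 14 (13 higher and 1 lower, Psme2) and 11 in tumors, 18 and 6 in cells, 15 for DKO against WT cells and 3 for the difference of NRF2 effects. No paired fit was possible for the contrasts across experiments or between tumors and cells. Of 5847 alternative values of named rows, 5553 kept their side of the threshold, 228 lost and 66 gained a call. The sign changed in 190, in 0 of them with a call. For the 12 low members a difference of few reads spans most of the scale.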
